A study of Mus musculus with 7 samples.

Results

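The miRNAs described here are the 2 mature strands of the miR-21 hairpin, mmu-miR-21 and mmu-miR-21*, chosen by exact name from the 696 mouse miRNAs on the array. The older naming of the array calls the dominant strand mmu-miR-21 and the opposite, usually rarer strand mmu-miR-21*. They were measured in total RNA of kidneys from male C57BL/6 mice of 9 to 12 weeks, collected at day 28 after surgery. Mice had either unilateral ureteral obstruction (UUO), in which the left ureter is tied off and the kidney scars over the following weeks, or a sham operation, in which the ureter was exposed but not tied. Cy3-labelled RNA was hybridized to Agilent miRNA arrays read in 1 colour. In the deposited record 4 arrays carry the group label non-treated (replicates 1, 2, 3 and 4) and 3 the label treated (replicates 1, 3 and 4). Nothing in the labels says which label stands for the obstructed kidneys. The arrays labelled treated bear an S in their titles, possibly for sham, and those labelled non-treated a C, possibly for control, while the title of the record names sham kidneys. Directions below therefore follow the deposited labels, with labelled non-treated always subtracted from labelled treated. The study's table of changed miRNAs gives UUO over sham. Its signs are opposite to those here, for miR-21 and for the other miRNAs listed there. The labels name as RNA kit one that the study's methods give only for fixed human tissue, and p-values measure the spread between these arrays, as the labels do not tie each array to a mouse.

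miRNAs are short RNAs that guide the silencing complex to messenger RNAs, mainly by pairing of bases 2 to 8, the seed. A hairpin precursor is cut into a duplex, of which 1 strand is usually loaded into the complex and the other, the star strand, is mostly degraded. miR-21 is among the most studied miRNAs of fibrosis and cancer. In kidney it is known from injured tubule cells, activated fibroblasts and infiltrating immune cells, TGF-β signalling promotes its maturation, and Reck, an inhibitor of matrix-degrading enzymes, is among its known targets.

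Both strands matched a RefSeq entry, where they are named miR-21a-5p and miR-21a-3p. On GRCm38.p6 the Mir21a hairpin lies on the minus strand at chr11:86584067-86584158, within the bounds of the protein-coding gene Vmp1 (chr11:86583858-86683836) and 209 bases from its nearer end. Whether this is exon or intron was not read from the table used here. The hairpin is shown to place both strands, which are in capitals, the first at bases 18 to 39 and the second at bases 56 to 77, with 16 bases between them:
Mir21a hairpin: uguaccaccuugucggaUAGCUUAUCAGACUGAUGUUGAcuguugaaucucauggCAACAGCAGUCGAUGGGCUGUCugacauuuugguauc
The mature strands are shown next, 5′ to 3′, with the seed in capitals, to let the strands be compared:
mmu-miR-21 (miR-21a-5p, chr11:86584120-86584141): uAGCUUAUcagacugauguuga
mmu-miR-21* (miR-21a-3p, chr11:86584082-86584103): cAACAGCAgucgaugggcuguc
The strands have different seeds and differ in base composition, with 36.4% G and C in miR-21 and 59.1% in miR-21*. Among 1738 mature mouse miRNAs in RefSeq, the seed AGCUUAU of miR-21 was held by 2, miR-21a-5p and miR-21c, and the seed AACAGCA of miR-21* by 1, miR-21a-3p itself. The later-named relatives miR-21b and miR-21c are shown because a short probe could bind them too:
miR-21b (chr3:29636768-29636790, plus strand): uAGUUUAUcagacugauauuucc
miR-21c (chr8:128278188-128278208, minus strand): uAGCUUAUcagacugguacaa
With positions counted from the 5′ end and the base of miR-21 given first, miR-21b had 18 of 22 bases in common and differed at C4U, G18A, G21U and A22C. miR-21c had 16 of 21 in common and differed at A16G, G18A, U19C, U20A and G21A, so it shares the seed and differs only toward the 3′ end. Neither relative has a name of its own on the array. mmu-miR-590-5p has one, but its sequence was not at hand here, so its seed was not compared with that of miR-21. It was detected on no array. The probes are read here without their sequences, so the part of miR-21b and miR-21c in the miR-21 signal was not tested.

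mmu-miR-21 is read by 2 probes with 10 spots each and mmu-miR-21* by 4 probes with 5 spots each. The measured value is the background-subtracted intensity of a spot in arbitrary units, averaged over the spots of a probe and then added up over a miRNA's probes. Probes bind with unequal strength, so signals of different probes or strands are not compared as levels. No spot of either strand was saturated. The 7 arrays share 1 slide and 1 scan, and their number limits the precision. For the 186 miRNAs detected on all arrays, the mean log2 signal was 6.65 to 7.52 on the arrays labelled non-treated and 5.79 to 6.42 on those labelled treated, with no overlap, whereas the log2 signal of the spike-in controls overlapped (10.36 to 10.83 and 10.21 to 10.76). Signals were scaled so that this mean of the 186 miRNAs was equal on all arrays. Unless a sentence says unscaled, values below are scaled.

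miR-21 was bright on every array and lower on those labelled treated. The unscaled summed signal was 22378, 18644, 14880 and 22637 in non-treated replicates 1 to 4. It was 1854, 2392 and 1575 in treated replicates 1, 3 and 4. The dimmest array labelled non-treated, replicate 3, was thus above the brightest labelled treated, and the ratio of the groups' geometric means was 10.1 before scaling. After scaling, the log2 signal was 13.80, 13.41, 13.96 and 13.81 in non-treated replicates 1 to 4. It was 11.56, 11.55 and 11.58 in treated replicates 1, 3 and 4. The groups did not overlap, and the order within the non-treated group changed with scaling, since replicate 3 was dimmest before it and brightest after it.

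The mean log2 signal of miR-21 on the arrays labelled non-treated was 13.75 ± 0.23 (SD, n = 4), and on the arrays labelled treated it was 11.56 ± 0.016 (SD, n = 3). miR-21 therefore differed by -2.18 on the log2 scale (standard error 0.13, 95% confidence interval -2.48 to -1.89, limma adjusted p = 1.60e-06). This is a signal 4.54-fold higher on the arrays labelled non-treated, with an interval of 3.70 to 5.57. The exact 2-sided permutation p for this gene alone was 0.0571, the smallest that 3 against 4 arrays can give. A kidney holds many cell types, and in such bulk RNA fewer cells of a type and less RNA per cell cannot be told apart.

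**Figure D1:**
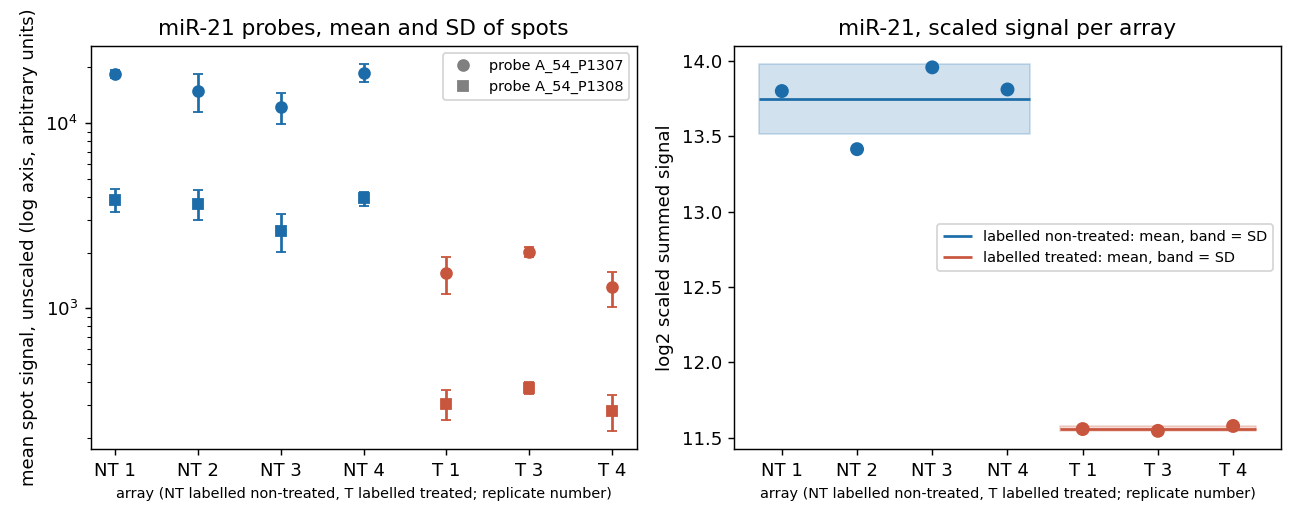
Left, unscaled mean spot signal of each miR-21 probe on each array in arbitrary units on a log axis, with the SD of its spots; right, scaled log2 summed signal of miR-21 per array, with the group mean as a line and the SD as a band. NT stands for labelled non-treated and T for labelled treated, followed by the replicate number. The non-treated arrays lie at 13.41 to 13.96 on the right and the treated arrays at 11.55 to 11.58.

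The spread of miR-21 differed between the groups. On the arrays labelled non-treated its SD of 0.232 was above the median SD of 0.136 over the 186 miRNAs detected on all arrays. On the arrays labelled treated its SD of 0.016 was below the corresponding median of 0.089. The standard error that the spots of 1 array give to its log2 signal was 0.022 to 0.087 on the former and 0.023 to 0.087 on the latter. The 3 treated arrays thus lay closer together than the spots of any of them determine the value, and the small SD is no measure of the precision of the group.

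Both probes of miR-21 moved in the same direction and by similar amounts. For the brighter probe, A_54_P1307, the unscaled mean spot signal was 18513, 14967, 12249 and 18708 in non-treated replicates 1 to 4 and 1550, 2020 and 1297 in treated replicates 1, 3 and 4. For A_54_P1308 it was 3864, 3677, 2631 and 3929 and then 305, 372 and 278. Neither probe had overlapping groups, and all 40 spots of each on the non-treated arrays and all 30 on the treated arrays were well above background. The coefficient of variation of the spots of a probe on an array was 4.82 to 23.2%. In the fit over all 365 probes tested, of which 34.2% were called lower on the arrays labelled treated, A_54_P1307 differed by -2.16 (standard error 0.13, limma adjusted p = 2.37e-07). A_54_P1308 differed by -2.31 (standard error 0.11, limma adjusted p = 4.43e-08). The ratio of the brighter to the dimmer probe, in which scaling cancels, was 4.07 to 4.79 on the arrays labelled non-treated and 4.66 to 5.43 on those labelled treated. These ranges overlapped (exact 2-sided permutation p = 0.171). The probes read the same RNA molecules and are not replicates of the condition.

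miR-21* was dim, and it was detected on the arrays labelled non-treated alone. Agilent's per-miRNA flag called it detected on 4 of 4 of these and on 0 of 3 labelled treated. Over all miRNAs the flag called 232 to 282 detected on the arrays labelled non-treated. It called 193 to 214 on those labelled treated, which were also dimmer before scaling. The part of this in the detection of miR-21* was not tested. The unscaled summed signal was 11.9, 10.1, 9.66 and 13.6 in non-treated replicates 1 to 4. It was 0.0639, -0.781 and -1.91 in treated replicates 1, 3 and 4, that is, around the subtracted background. The groups did not overlap.

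The signal of miR-21* came from part of its probes. A_54_P3447 gave an unscaled mean spot signal of 6.72, 5.32, 6.06 and 9.30 in non-treated replicates 1 to 4 and 0.0257, 0.682 and -0.0542 in treated replicates 1, 3 and 4. Of its spots, 18 of 20 were well above background on the arrays labelled non-treated and 0 of 15 on those labelled treated. A_54_P3446 gave 3.86, 4.27, 3.16 and 3.80 and then -0.112, -0.705 and -0.762. All 20 of its spots on the non-treated arrays were called above background but only 2 well above it, and none of its 15 spots on the treated arrays was called either. The signals of A_54_P3444 (-0.215 to 0.785 labelled non-treated, -0.437 to 0.510 labelled treated) and A_54_P3445 (0.106 to 0.650 and -0.659 to -0.360) lay near 0 in both groups. Set against the negative control spots of the same array, A_54_P3447 lay 5.23 to 8.95 SD above their mean on the non-treated arrays and 0.429 to 0.942 SD above it on the treated arrays. For A_54_P3446 these distances were 3.63 to 4.23 and -0.485 to 0.324 SD.

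**Figure D2:**
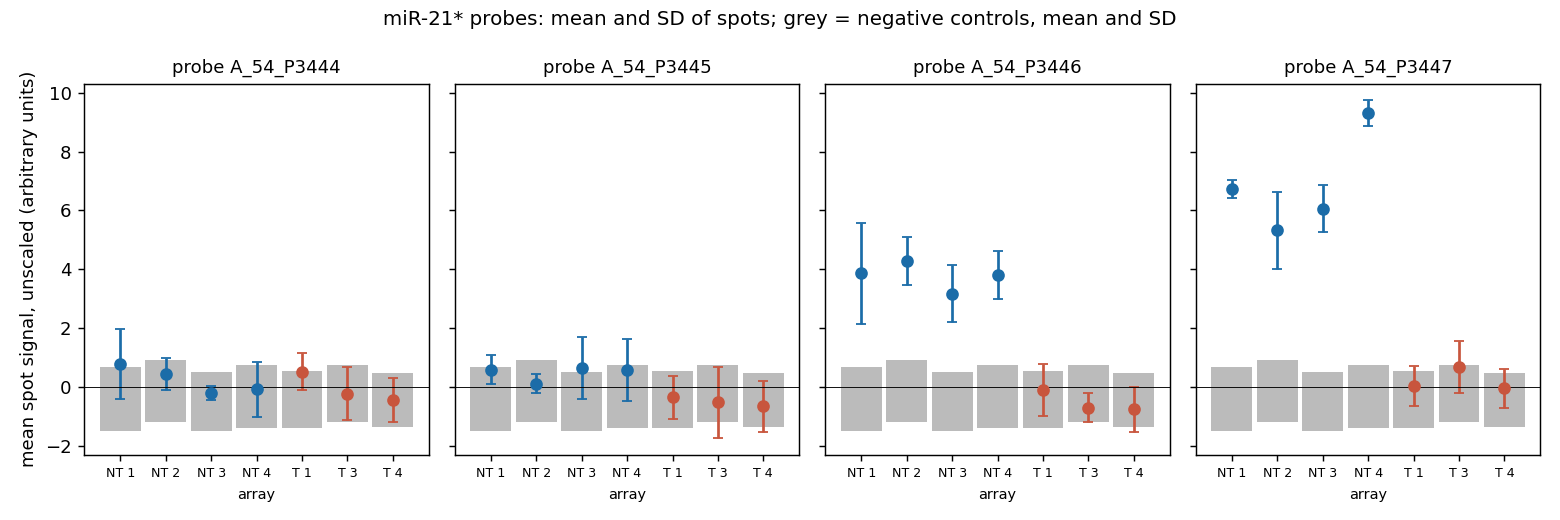
Unscaled mean spot signal in arbitrary units, with the SD of 5 spots, of each of the 4 miR-21* probes on each array (NT labelled non-treated, blue, T labelled treated, red). Grey blocks are the mean and SD of the negative control spots of the same array. A_54_P3447 lies at 5.32 to 9.30 on the non-treated arrays and at -0.0542 to 0.682 on the treated arrays, A_54_P3446 shows the same separation at lower signal, and the other probes lie near 0.

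On the arrays labelled treated, miR-21* was not well above background. On the linear scale, which needs no floor, the scaled summed signal was 8.12 ± 1.84 (SD, n = 4) labelled non-treated and -1.53 ± 1.97 (SD, n = 3) labelled treated, with a difference of -9.65 (exact 2-sided permutation p = 0.0571, the smallest possible here). For the fit, scaled signals below 2.08 were raised to that floor. It placed the log2 signal at 2.99 ± 0.33 (SD, n = 4) against 1.06, the floor, on all 3 treated arrays. miR-21* entered the fit through the group in which it was detected and all its treated values were set to the floor, so the fitted difference and its p (limma adjusted p = 1.57e-05) are set by filter and floor and are not read as a test or a fold. This call was lost with the floor at the highest of the arrays' lowest detected signals (-0.44, limma adjusted p = 0.0608), with the mean of log2 probe signals (-0.055, adjusted p = 0.259) and with the deposited table of processed values (-0.46, adjusted p = 0.801), but was kept at -2.12 (adjusted p = 0.00274) when that table's column of error estimates, that of treated replicate 4, was left out. The sign turned with normexp background correction (0.44, adjusted p = 0.00373). No fold is given for miR-21*, since the lowest detected sum of treated replicate 4 was below 0 and sets no limit there, and the limits of the other treated arrays were 5.85 and 5.34, close to the scaled signals of 5.94 to 10.3 on the non-treated arrays. For A_54_P3447 alone, the lowest detected probe signal of the treated arrays (6.25 to 9.85 after scaling) was too high for any fold to be given. The probe was not called (limma adjusted p = 0.172). A probe floor of 4.56 held it on all arrays except non-treated replicates 3 and 4, so this p is set by the floor and is not read as a test.

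The changes of both strands were read against those of all miRNAs. The test covered the 236 miRNAs that every array of 1 group or the other detected. Of these, 34.7% were called lower on the arrays labelled treated at an adjusted p below 0.01, and miR-21 was among them. miR-21* was counted there too, with its treated values at the floor. These were 82 miRNAs, against 61 called higher, and the median log2 difference was -0.13. A fall was thus common. The fitted difference of 14 miRNAs lay below that of miR-21, and 7 of these were detected on all arrays. The others rest in part on undetected values, so miR-21 has no exact rank. Detection on all arrays labelled non-treated and none labelled treated, as for miR-21*, was found for 26 of 696 miRNAs, and the opposite for 2. Each array labelled treated also detected fewer miRNAs than any labelled non-treated. Of the 118 names that end in a star, 8 had the pattern of miR-21* and 0 the opposite.

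**Figure D3:**
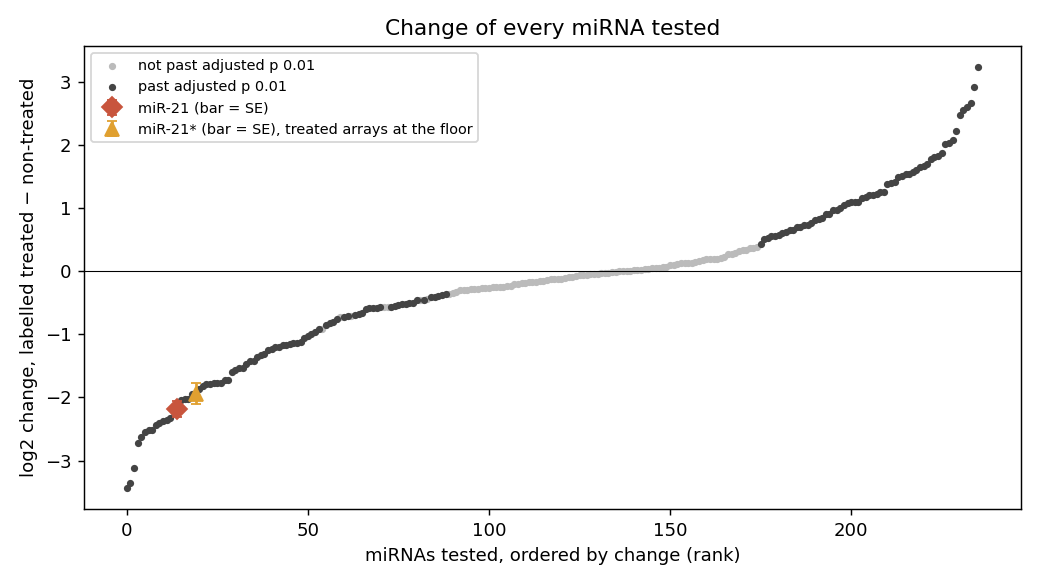
Log2 difference, labelled treated minus labelled non-treated, of the 236 miRNAs tested, ordered from the largest fall to the largest rise; dark points passed a limma adjusted p of 0.01. miR-21 (diamond, -2.18) and miR-21* (triangle, treated arrays at the floor) are marked with their standard errors. Fitted values that rest on the floor have no exact place in the order.

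The reference for no change moved with the scaling, and miR-21 moved with it. Its log2 difference was -1.94 with scaling by the 75th percentile of all miRNAs, -3.14 when the spike-ins set the scale and -3.34 on unscaled signals. The median over all miRNAs tested was 0.12, -1.05 and -1.22 in these settings. One factor per array shifts all miRNAs alike, so the distance of miR-21 from that median is nearly fixed by construction, quantile normalization aside, and its steadiness says nothing of stability. This distance was -2.06 in the main setting and between -2.31 and -2.06 over the other scalings. The split of calls over all miRNAs shifted more, from 61 higher and 82 lower to 76 and 61 with the 75th percentile of all miRNAs, and to 8 and 167 without scaling.

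**Figure D4:**
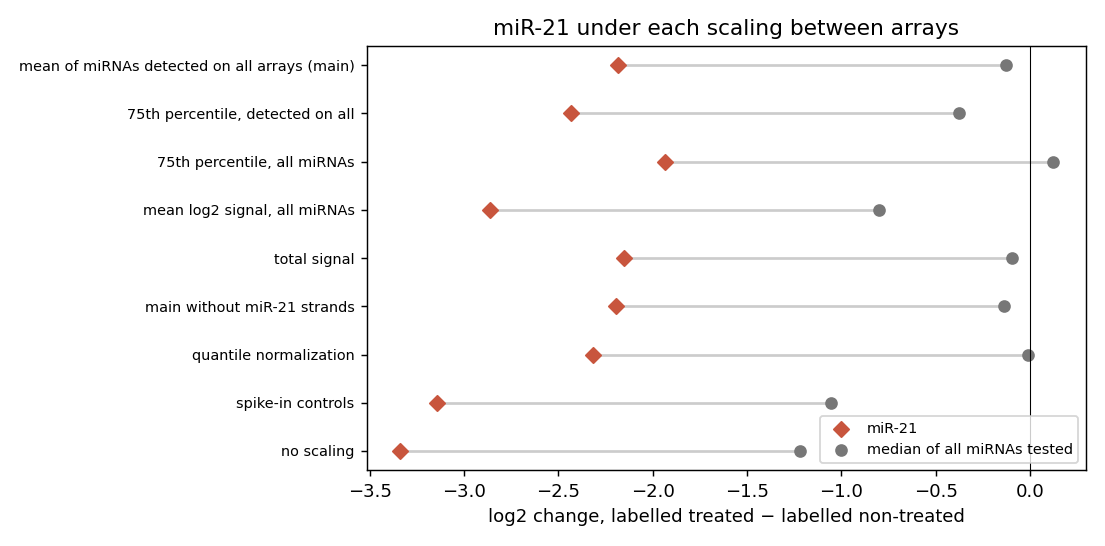
Log2 difference, labelled treated minus labelled non-treated, of miR-21 (diamonds) and the median of all miRNAs tested (circles) under each scaling between arrays; the line joins the values of 1 setting. miR-21 ranges from -3.34 to -1.94, and its difference from the median, which scaling by 1 factor per array hardly changes by construction, is -2.31 to -2.06.

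The strands of a hairpin come from 1 precursor, and a test of whether miR-21 and miR-21* changed by unequal amounts was planned. It was not run because miR-21* was detected on none of the arrays labelled treated. Other hairpins describe how strands behaved on these arrays. Of 95 pairs of a name and its star, 9 had both strands detected on all arrays, and in these the change of the first strand minus that of the star was -0.42 to 0.27, with a median of -0.013. All 9 had the same sign in both strands. Only the pair of miR-140 was lower on the arrays labelled treated (-0.27 and -0.18). Neither of its strands passed (limma adjusted p = 0.0217 and 0.132), so none of the 9 describes a fall as large as that of miR-21. The pairs of miR-21, miR-10a, miR-31 and miR-322, named after their values were seen, were the 4 that had the first strand on all 7 arrays and the star on all 4 non-treated arrays and no treated array. The first strand differed by -0.02 for miR-10a (limma adjusted p = 0.880), -2.72 for miR-31 (adjusted p = 3.06e-07) and -0.40 for miR-322 (adjusted p = 0.00324). This pattern of detection was therefore found beside a large fall of the first strand and also beside none that passed the test.

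The profile of miR-21 over the 7 arrays was compared with those of the other 185 miRNAs detected on all arrays. Likeness was the root mean square difference of log2 signals after each miRNA was centred on its own mean. The closest was miR-223, a miRNA of myeloid cells, at 0.171. miR-214, which is transcribed together with a miR-199a hairpin in mesenchymal cells, followed at 0.176, and miR-183, known from sensory epithelia, at 0.183. miR-199a-5p and miR-199a-3p, the strands of that neighbouring hairpin, lay at 0.186 and 0.226. The sixth lay at 0.244 and the median over all 185 was 1.09. The 5 differed by -2.33, -2.51, -2.04, -2.41 and -2.55 between the labels, in the order given, against -2.18 for miR-21. A large difference between the groups dominates this measure, so it mostly finds miRNAs with a similar difference. Of the 5, none shows the lower value of miR-21 in non-treated replicate 2 to the same extent.

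**Figure D5:**
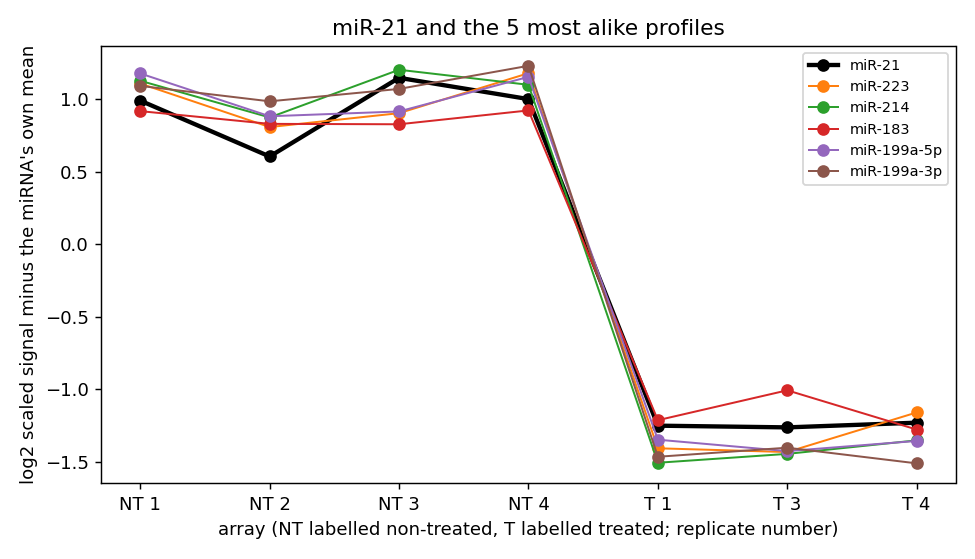
Scaled log2 signal minus the miRNA's own mean over 7 arrays for miR-21 (black) and the 5 miRNAs with the most similar profile. NT is labelled non-treated and T labelled treated, with replicate numbers; lines join the arrays for legibility and are no time course. All 6 lie above 0 on the non-treated arrays and below 0 on the treated arrays.

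miR-21 belongs to a group of miRNAs that the field links to activated fibroblasts. Of the other 8 on this list, 6 were called lower on the arrays labelled treated, 1 was called higher and 1 did not pass, beside 34.7% lower and 25.8% higher over all miRNAs tested. The median of the 8 was -2.39, against -0.13 over all. Both this list and that of 13 miRNAs below were chosen with earlier results of these data known, so their counts are descriptions and not independent support. Members of a list are also not all independent, since miR-214 is transcribed together with a miR-199a hairpin. On the log2 scale miR-199a-5p differed by -2.41, miR-199a-3p by -2.55 and miR-214 by -2.51, whereas miR-34a, a target of p53, differed by 0.01 (limma adjusted p = 0.893). The member called higher was miR-212-3p, at 1.09, although miR-132 of the same cluster was called lower at -2.38. When arrays were scaled by the mean of all miRNAs or by the spike-ins, or left unscaled, 7 of these 8 were called lower and 0 higher. Of 13 miRNAs that the field links to repression of matrix genes or to the epithelial state, 10 were called higher and 0 lower, beside 25.8% and 34.7% of all miRNAs tested, with a median of 0.90. Among these, miR-29b rose by 1.18, miR-29c, a repressor of collagen messages, by 1.49, and miR-30a by 1.16. The 3 that did not pass were miR-29a at 0.28 (adjusted p = 0.126), miR-141 at 0.33 (adjusted p = 0.0580) and miR-200c at -0.12 (adjusted p = 0.332). This direction turned with the scaling: with spike-in controls 2 were higher and 3 lower (median -0.06), and without scaling 1 and 2 (median -0.25).

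Markers of white blood cells and of smooth muscle were lower on the arrays labelled treated, like miR-21. The tubule markers miR-192 and miR-194 and the red blood cell markers miR-451 and miR-144 were higher, whereas the tubule marker miR-204 was lower. The part of these cell types in the difference of miR-21 was not tested. Of the white blood cell markers, 5 of 5 were called lower, beside 34.7% of all miRNAs tested, and 1 of them, miR-155, is also among the 6 lower on the fibroblast list. They had a summed signal of 1111 to 1453 labelled non-treated and 281 to 304 labelled treated. The smooth muscle and pericyte markers miR-143 (-1.05) and miR-145 (-0.82) were both lower, with sums of 335 to 410 and 163 to 195. Of the tubule markers, miR-192 (3.24) and miR-194 (2.92) were higher, beside 25.8% of all miRNAs tested. miR-204 was lower (-0.56) and miR-215 was detected on no array. The tubule sums were 244 to 415 labelled non-treated and 2211 to 2367 labelled treated. The call of miR-204 was lost with quantile normalization and with the 75th percentile of all miRNAs. Of 3 red blood cell markers, miR-451 (1.65) and miR-144 (2.61) were higher, with sums of 1079 to 2328 and 4615 to 5118, and miR-486 was not found under that name. With spike-ins and on unscaled signals only 1 of the red blood cell markers was called higher. The endothelial markers differed by -0.0017 (miR-126-3p, limma adjusted p = 0.990) and 0.08 (miR-126-5p, adjusted p = 0.529), with sums of 1769 to 1955 and 1780 to 1898. This depended on the scaling, since both were called lower with spike-ins (median -0.92) and on unscaled signals (-1.12), and 1 with the mean of all miRNAs (-0.64). Of 4 markers of other tissues, miR-122 of liver and miR-124 of neurons were detected on no array. miR-1 of striated muscle differed by -0.72 (adjusted p = 0.0427) and miR-133a was detected on 3 of 4 arrays labelled non-treated and 0 of 3 labelled treated. The tubule markers miR-192, miR-194 and miR-204 were detected on all arrays.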

How the data were processed

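Per the labels, kidney RNA was labelled with Cy3 and read on 7 1-colour arrays with Agilent Feature Extraction 10.7.3.1. The deposited spot values are background-subtracted intensities on a linear scale, not normalized between arrays by the authors. The methods name log2 values, each array set to its mean, and a t-test with a p threshold of 0.01. The caption of the study's heat map instead gives this threshold for a Bonferroni adjusted p. It also gives 4 mice per group, whereas 3 arrays labelled treated were used here. The deposited table of processed values holds the intensity of the first spot per probe for 6 arrays (tolerance 1e-05) and, for treated replicate 4, the authors' error estimates, a score in the same units.

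From the intensities of 13920 non-control spots, outlier spots were left out, spots averaged per probe (1937 probes), and probes summed per miRNA. Arrays were scaled to equal mean log2 over the 186 miRNAs detected on all arrays. The floor of 2.08 is the median over arrays of the lowest scaled detected signal. limma 3.58.1 in R 4.3.3 was fitted over all 236 miRNAs (365 probes), with Benjamini-Hochberg adjustment and a threshold of 0.01, treated against non-treated, no covariates. The design, members and lists were chosen with earlier results of these data known. Named are the members, the 5 most alike miRNAs, same-seed miRNAs of the array and up to 4 examples per list, and others are named where a small count calls for it. Exact permutation tests cover 35 arrangements of the arrays. On simulated data for this comparison, 57 of 60 shifts of 1.5 (log2) among 236 miRNAs were recovered, with 0 false calls. The simulation had as many rises as falls and every miRNA detected on all arrays. It therefore says nothing of undetected values or of unbalanced changes. Differences between arrays of a group were 1.31 to 3.28 times those expected from spots over 9 pairs. Spot error leaves out variation between hybridizations, so this cannot tell whether any arrays repeat the same RNA. No array was counted as a repeat. Slide and scan could not be blocks, with 1 of each. Background subtraction leaves dim signals near or below 0. Among the members this bears on miR-21* alone, and it also bears on other miRNAs undetected on some arrays. Scaling, signal, spots, probes, floor, filter, test, block and each array left out were varied. normexp used median signals, as mean signals were not used here.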

Additional observations from a re-analysis of the deposited data

Results flagged for a closer look

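Of 8 sets of 4 arrays labelled non-treated that were examined for a stray array, 1 held one, and chance gives about 5% of such sets. It was the mean log2 signal, before scaling, of miRNAs detected on all arrays. Non-treated replicate 3 lay at 6.65 and the other arrays of its group at 7.40 to 7.52, a gap of 0.859 of the group's range. The unscaled signal of miR-21 was lowest in its group on this array (14880) and its scaled signal highest (13.96 on the log2 scale).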

How the results depend on the processing

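The difference of miR-21 kept its direction and stayed past the threshold in 31 of 31 alternatives, from -3.34 to -1.94 on the log2 scale (limma adjusted p 3.17e-22 to 3.09e-04, the methods' t-test included). Leaving out each array gave -2.29 to -2.14 for miR-21, -2.28 to -2.11 for A_54_P1307, -2.37 to -2.25 for A_54_P1308 and -0.33 to -0.087 for A_54_P3447, with no call changed. The values of A_54_P3447 rest on its floor on most arrays, so they are not read as a sign of stability. The call of miR-21* was kept in 26 of 30. It is set by filter and floor in the main setting, so this count is not read as support for a difference. The fitted difference of miR-21* fell to -0.46 in the deposited table of processed values (adjusted p = 0.801). It was -2.12 (0.00274) without that table's column of error estimates for treated replicate 4. It fell to -0.055 with the mean of log2 probe signals (0.259) and -0.44 with the floor at the highest of the arrays' lowest detected signals (0.0608), and turned to 0.44 with normexp and an offset of 50 (0.00373), where scaling multiplies the offset itself. The higher floor raises the treated values by construction. With the mean of log2 probe signals, a floor of 4.56 per probe held A_54_P3444, A_54_P3445 and A_54_P3446 at that floor on all arrays. A_54_P3447 rose above it on non-treated replicates 3 and 4 alone, so the value in this setting is also set by the floor. A filter for detection on all arrays leaves miR-21* untested by construction. Leaving out each array gave -1.96 to -1.69 for its fitted difference and -10.5 to -8.56 for the linear difference, which 3 other settings left at -12.2 to -10.2.

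Of 236 miRNAs, 143 passed the threshold and 82 were lower. Those past it numbered 61 with the deposited table, 94 without its column of error estimates and 84 with Bonferroni adjustment, and the lower ones 27, 48 and 45. The lower ones numbered 139 with scaling by the mean of all miRNAs, 170 with spike-in controls, 167 without scaling and 53 with normexp. Leaving out each array gave 126 to 163 past it and 67 to 102 lower. The methods' t-test passed 139 without and 126 with Benjamini-Hochberg adjustment. Replicate numbers did not pair the arrays (correlations of deviations 0.08, -0.076 and 0.132 for numbers 1, 3 and 4). With the replicate number as a block, miR-21 differed by -2.29 (adjusted p = 1.00e-04), miR-21* by -2.08, A_54_P1307 by -2.28, A_54_P1308 by -2.37 and A_54_P3447 by -0.29, and 127 passed the threshold, 71 of them lower. Blocking on the array's row on the slide, chosen after seeing the data as was the linear scale, gave -2.21 for miR-21 and -1.99 for miR-21*. Signal over background limits miR-21*: on the treated arrays it was not well above background.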
